A study of Bos taurus with 22 samples.

Results

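The contractile genes of smooth muscle were examined in the RNA-seq profiles of jejunal mucosa scraped from Holstein steers. The list was fixed by name and holds 10 genes (ACTA2, ACTG2, MYH11, MYLK, TAGLN, CNN1, SMTN, LMOD1, DES and SYNM), and all 10 were found among the 27570 genes of the count table. All 10 also passed the filter on low counts in each comparison.

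Samples from 22 steers, 10 to 12 months of age, were used. Every steer received raw corn starch into the abomasum (daily dose 3.94 g per kg of BW), and treatments lasted 7 d. Control steers (n = 5) received water with the starch and subcutaneous injections of the vehicle, bovine serum albumin (BSA) in saline. GLP-2 steers (n = 5) received water and injections of glucagon-like peptide 2 (100 μg per kg of BW per day), a gut hormone that promotes growth of the intestinal mucosa. Casein steers (n = 6) received sodium caseinate (1.30 g per kg of BW per day) and BSA, and casein + GLP-2 steers (n = 6) received both sodium caseinate and GLP-2. For the main effects, 11 steers given GLP-2 stood against 11 given BSA, and 12 infused with casein against 10 infused with water. Steers had been sorted by BW into 6 blocks, and a replicate number here is the number of the block. A control sample of low RNA integrity was not sequenced, and a GLP-2 steer was not analysed here. The mucosa had been scraped from the opened jejunum with a glass slide, so each sample is a mixture of the cells that came off with the scraping.

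Smooth muscle cells shorten when myosin filaments pull on actin filaments, and calcium drives this by way of calmodulin and myosin light chain kinase. In the gut wall the bulk of these cells lies in the muscularis externa, below the mucosa. A thin muscle sheet, the muscularis mucosae, closes off the mucosa underneath, and single strands of muscle run up into the villi beside the lacteals. Vessel walls hold smooth muscle too. The mRNA of these genes in a scraping therefore depends on how much of those layers it carries, and no independent measure of scraping depth was used here. In bulk tissue, fewer smooth muscle cells and less mRNA per cell cannot be told apart.

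Library totals ranged from 8809666 to 28447810 counts, with a median of 12028560.5. The members together took from 0.00601% to 0.177% of the counts of a steer. Counts of a member in a steer ran from 0 (LMOD1) to 4937 (ACTA2). The total showed no relation to MYH11 that passed across the 22 steers (Pearson r = -0.05, permutation padj = 0.826 over 2 relations, Spearman rho = -0.13), and r was 0.06 without the 2 steers farthest from the median of MYH11. The TMM normalization factor, which scales a library for its composition, was correlated with it (r = 0.56, permutation p = 0.00653, padj = 0.0131, rho = 0.56, permutation p = 0.00751). For this factor r was 0.46 without those 2 steers, 0.43 within GLP-2 steers and 0.58 within BSA steers, and its part in the results was not tested. Both relations were chosen after the data had been seen.

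On the FPKM scale, which divides by gene length and allows genes to be compared, the actin ACTA2 had the highest median over the 22 steers (18.3 FPKM). It was followed by TAGLN (14.0), DES (10.2), ACTG2 (7.12), MYH11 (5.62), MYLK (5.54), CNN1 (3.88), SMTN (3.485), LMOD1 (0.703) and SYNM (0.604). SMTN was above LMOD1 in 22 of 22 steers, DES above ACTG2 in 20, TAGLN above DES in 19 and ACTA2 above TAGLN in 18. The other neighbours in this order could not be separated, since ACTG2 was above MYH11 in 11 of 22 steers, MYH11 above MYLK in 14, MYLK above CNN1 in 11, CNN1 above SMTN in 12 and LMOD1 above SYNM in 12.

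The steers differed widely. All further levels are library-scaled counts (CPM) after TMM normalization and are compared within a gene only. After removal of the treatment means, the standard deviation of log2 CPM had a median of 1.56 over the members, against 0.55 over all genes in the model of the 4 treatments. MYLK had the smallest spread of the members (1.05, above 78.6% of all genes), and DES and CNN1 the largest (1.88 each, above 98.6%).

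**Figure D1:**
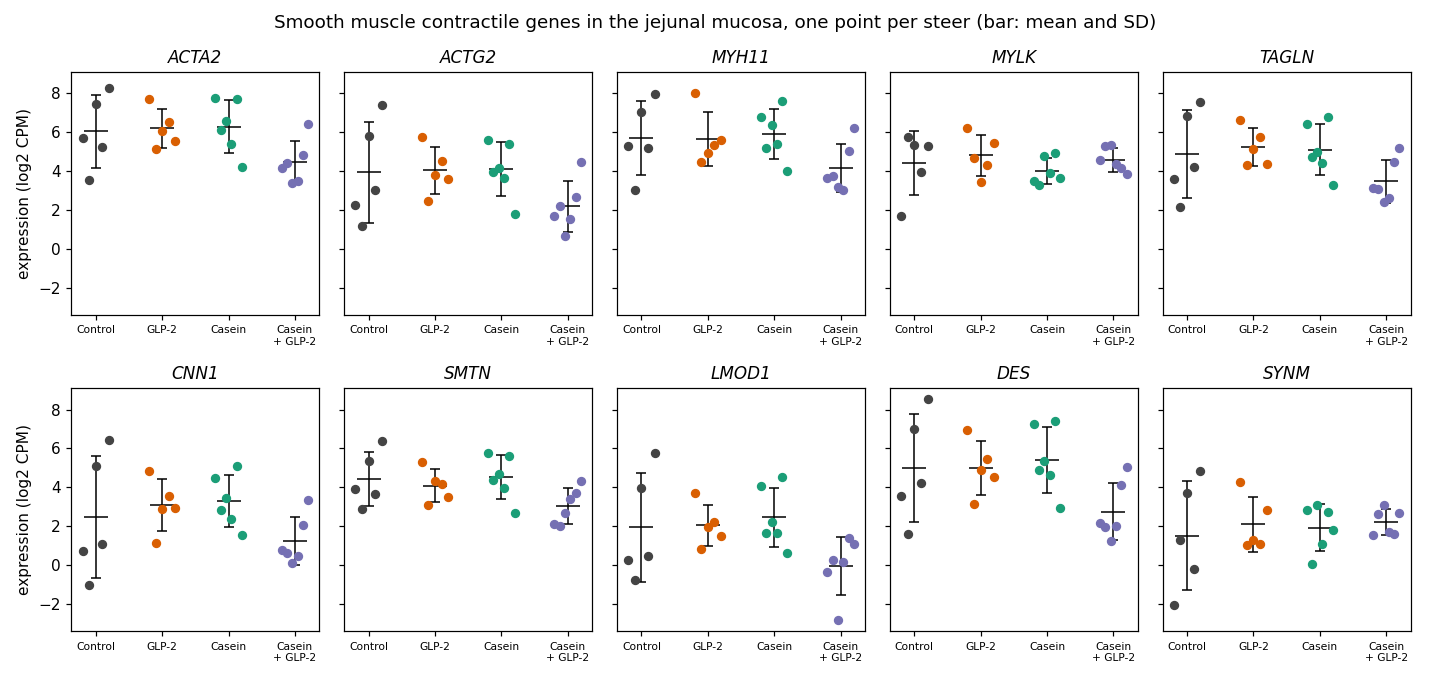
Expression of each member (vertical axis, log2 CPM) in every steer of the 4 treatments, with 1 point per steer and bars for the mean and SD. The range within a treatment is wide, from 0.353 to 85.4 CPM for CNN1 in control steers, and the groups overlap for every member.

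The thin filament of smooth muscle is built of the α actin ACTA2 and the γ actin ACTG2, of which ACTG2 is the typical actin of visceral muscle. ACTA2 lies on chromosome 26 (ARS-UCD1.2, 10626803 to 10679430, minus strand; ENSBTAG00000014614). In control steers its level was 51.7, 11.4, 172, 37.6 and 313.5 CPM in replicates 1 to 5. In GLP-2 steers it was 210.5, 35.4, 65.6, 90.4 and 46.7 CPM in replicates 1, 3, 4, 5 and 6. It ran from 18.6 to 215 CPM in casein steers (median 82.1) and from 10.3 to 85.5 CPM in casein + GLP-2 steers (median 19.6). Control replicate 5 was the highest steer and casein + GLP-2 replicate 3 the lowest, a 30.5-fold range, and each treatment overlapped every other. The gene overlaps FAS on the opposite strand, and the strand setting used for counting was not given in the sources used here. ACTG2 (chromosome 11, 10736902 to 10761462, minus strand; ENSBTAG00000015441) ranged from 1.42 CPM in casein + GLP-2 replicate 3 to 167.5 CPM in control replicate 5, which is 118-fold. The actin genes have nearly the same coding sequence, so the division of reads between ACTA2, ACTG2 and the skeletal actin ACTA1 is uncertain.

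MYH11 encodes the smooth muscle myosin heavy chain, the motor of contraction and the most restricted marker of the list. It lies on chromosome 25 (14124964 to 14252413, minus strand; ENSBTAG00000015988) and overlaps NDE1 on the opposite strand. Control steers had 39.4, 8.03, 132, 35.6 and 247 CPM in replicates 1 to 5. GLP-2 steers had 262, 21.7, 30.7, 39.9 and 47.7 CPM in replicates 1, 3, 4, 5 and 6. Casein steers ranged from 15.8 to 195 CPM (median 62.0) and casein + GLP-2 steers from 7.98 to 73.0 CPM (median 12.8). The highest value of all belonged to a GLP-2 steer and the lowest to a casein + GLP-2 steer, with control replicate 2 close to the lowest.

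MYLK encodes myosin light chain kinase, which switches the motor on, and its gene also gives a nonmuscle form found in epithelium and endothelium. It lies on chromosome 1 (67982278 to 68068472, minus strand; ENSBTAG00000014567), and the counts do not separate the forms. Its level was 3.11, 54.0, 39.7, 15.5 and 38.6 CPM in control replicates 1 to 5. It was 72.9, 25.3, 10.7, 19.6 and 44.0 CPM in GLP-2 replicates 1, 3, 4, 5 and 6. Casein steers ranged from 9.50 to 30.6 CPM (median 13.5) and casein + GLP-2 steers from 14.1 to 40.3 CPM (median 21.7). Control replicate 2, which was low for ACTA2 and MYH11, had the highest MYLK of the control steers.

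Of the proteins that bind actin, transgelin (TAGLN) and calponin (CNN1) sit on the thin filament, smoothelin (SMTN) is found in contractile rather than synthetic cells, and leiomodin (LMOD1) nucleates actin filaments. TAGLN (chromosome 15, 27888817 to 27894507, plus strand) ranged from 4.32 to 191 CPM over the 22 steers. CNN1 (chromosome 7, 15883405 to 15891295, plus strand) ranged from 0.353 to 85.4 CPM, and its lowest value, in control replicate 2, rests on 4 counts. Both were highest in control replicate 5.

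SMTN (chromosome 17, 69938495 to 69961375, plus strand; ENSBTAG00000003100) had 14.7, 7.32, 41.0, 12.55 and 82.1 CPM in control replicates 1 to 5. It had 38.95, 8.29, 19.8, 17.95 and 11.4 CPM in GLP-2 replicates 1, 3, 4, 5 and 6. Casein steers ranged from 6.33 to 54.7 CPM (median 23.05) and casein + GLP-2 steers from 3.899 to 19.8 CPM (median 8.30). The casein + GLP-2 steers lay at the lower end, but all 4 treatments overlapped.

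LMOD1 (chromosome 16, 80548214 to 80576112, plus strand; ENSBTAG00000021576) had 1.05, 0.441, 15.5, 1.24 and 53.8 CPM in control replicates 1 to 5. It had 12.8, 1.66, 3.70, 4.46 and 2.67 CPM in GLP-2 replicates 1, 3, 4, 5 and 6. Casein steers ranged from 1.37 to 23.0 CPM (median 3.72) and casein + GLP-2 steers from 0 to 2.44 CPM (median 1.01). The highest casein + GLP-2 steer was thus below the casein median, while 3 of 5 control steers were also below 2 CPM. Casein + GLP-2 replicate 3 had 0 counts, and with a floor of 3 counts for that library control replicate 5 was at least 253-fold higher.

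The intermediate filaments tie the contractile units together, with desmin (DES) as the main filament protein of muscle and synemin (SYNM) as its partner. DES (chromosome 2, 107351796 to 107358964, plus strand; ENSBTAG00000005353) had 11.4, 2.91, 128, 18.5 and 371 CPM in control replicates 1 to 5. It had 124.5, 8.74, 29.9, 44.15 and 22.8 CPM in GLP-2 replicates 1, 3, 4, 5 and 6. Casein steers ranged from 7.385 to 168 CPM (median 34.95) and casein + GLP-2 steers from 2.20 to 32.3 CPM (median 4.09). The range over all steers was 169-fold. SYNM (chromosome 21, 7581549 to 7606637, minus strand) was the least abundant member per length, and its level ran from 0.10 CPM (2 counts, control replicate 1) to 28.2 CPM (control replicate 5).

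**Figure D2:**
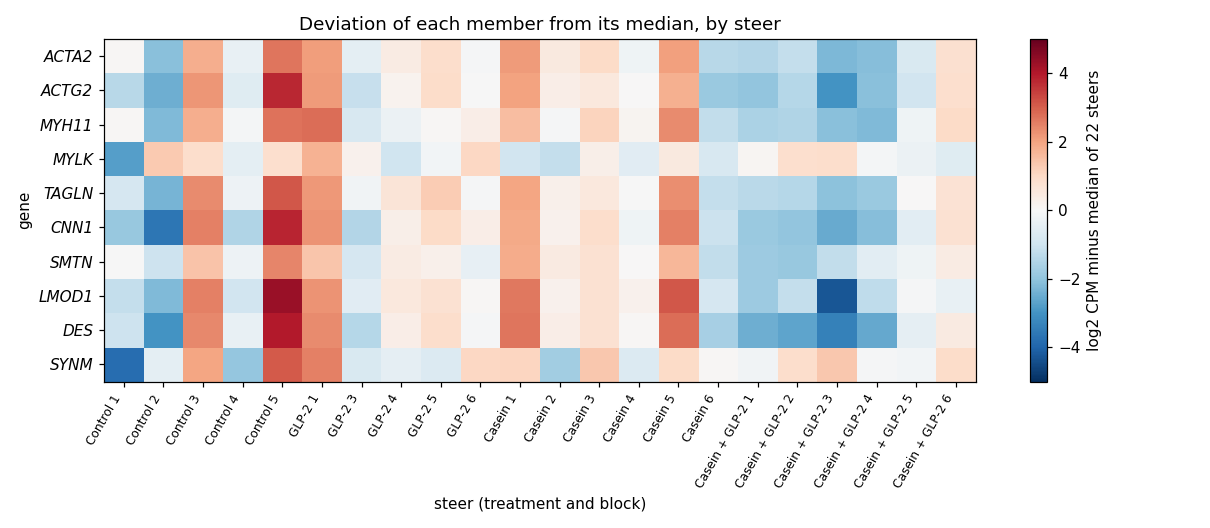
Difference of log2 CPM from the median of the 22 steers (colour) for each member (rows) in each steer (columns, by treatment and block). Columns largely share a colour apart from MYLK and SYNM: control replicates 3 and 5, GLP-2 replicate 1 and casein replicates 1 and 5 are high, and control replicate 2 and most casein + GLP-2 steers are low.

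Of the members, 8 varied together from steer to steer, a grouping made after the values were seen. The 28 pairs among ACTA2, ACTG2, MYH11, TAGLN, CNN1, SMTN, LMOD1 and DES had Pearson correlations of log2 CPM from 0.89 to 0.98 over the 22 steers (Spearman rho 0.88 to 0.98). With the treatment means removed they ranged from 0.86 to 0.99. MYLK stood apart, with correlations of 0.01 to 0.15 with these genes, and SYNM lay between, with 0.40 to 0.58. MYLK and SYNM were correlated with each other at 0.74. A first principal component took 79.0% of the variance of the members and a second 15.8%. The points of these correlations share libraries and depth, and they are given as a description.

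**Figure D3:**
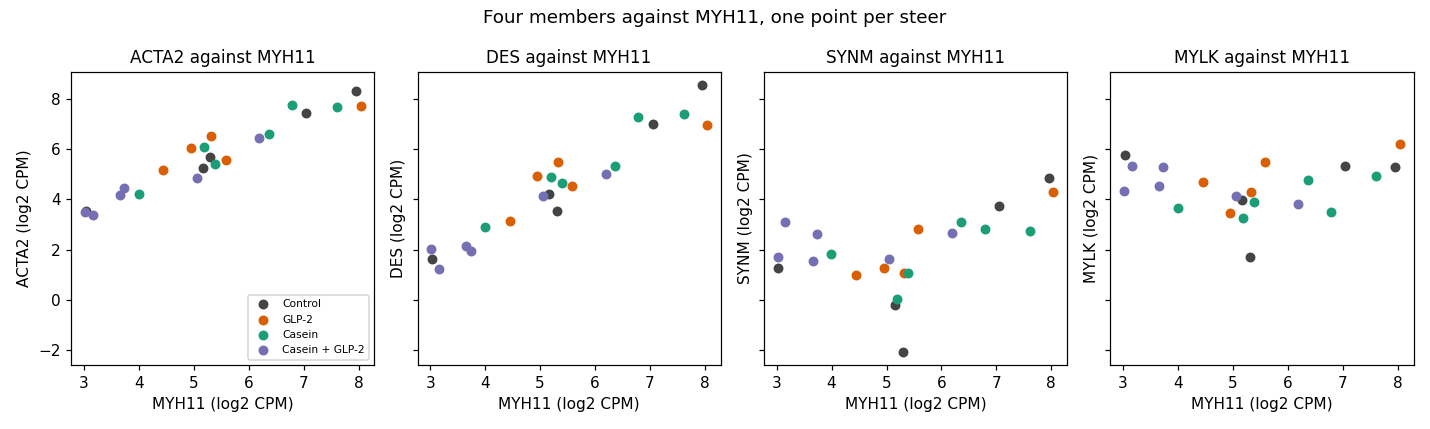
Log2 CPM of ACTA2, DES, SYNM and MYLK (vertical axes) against that of MYH11 (horizontal axis), with 1 point per steer coloured by treatment. ACTA2 and DES follow MYH11 over its whole range, SYNM does so loosely (r = 0.46) and MYLK does not (r = 0.11).

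Exogenous GLP-2 administration was compared with BSA to ask whether the hormone altered the muscle signal of the mucosa. At padj ≤ 0.05 (edgeR quasi-likelihood test, Benjamini-Hochberg adjustment over 13928 genes), 0 of 10 members differed, where 13.5% of all genes did. LMOD1 (log2 fold change = -1.96, SE 0.754, padj = 0.0748) and SMTN (log2 fold change = -1.12, SE 0.429, padj = 0.0750) tended to be lower with GLP-2. At padj ≤ 0.10, 26.1% of all genes were called, and 14.2% were called lower, beside 2 of 10 members. In edgeR, 4 members (ACTG2, SMTN, LMOD1 and DES) and 34.6% of all genes reached an unadjusted p ≤ 0.05. None of these counts of members stood far from the share of all genes.

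The fitted values were nevertheless below 0 for 9 of the 10 members, with a median log2 fold change of -1.07 against 0.01 over all genes tested. DES had a log2 fold change of -1.74 (95% confidence interval -3.275 to -0.20, padj = 0.104) and ACTG2 of -1.40 (-2.79 to -0.0022, padj = 0.144). CNN1 (-1.465, padj = 0.155), TAGLN (-1.02, padj = 0.214), ACTA2 (-1.01, padj = 0.190) and MYH11 (-0.81, padj = 0.330) did not pass, and the interval of MYH11 ran from -2.02 to 0.40. SYNM was at -0.26 (padj = 0.778), and its sign turned in other fits. MYLK was at 0.35 (-0.44 to 1.13, padj = 0.527). The 8 members that vary together do not count as separate observations of this direction.

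The result depended on single steers. Without GLP-2 replicate 1, the highest steer for MYH11, 4 members were called lower (DES, LMOD1, MYH11 and SMTN), with a log2 fold change of -1.61 for MYH11 (padj = 0.0410), and 2073 genes were called in all. Without control replicate 2, LMOD1 and SMTN were called among 3516 genes in all, and without casein replicate 6 SMTN was called among 2892, against 1881 genes with every steer. A DESeq2 Wald test on the same 13928 genes called LMOD1 and SMTN, 2 of 10 members, where it called 21.5% of all genes.

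**Figure D4:**
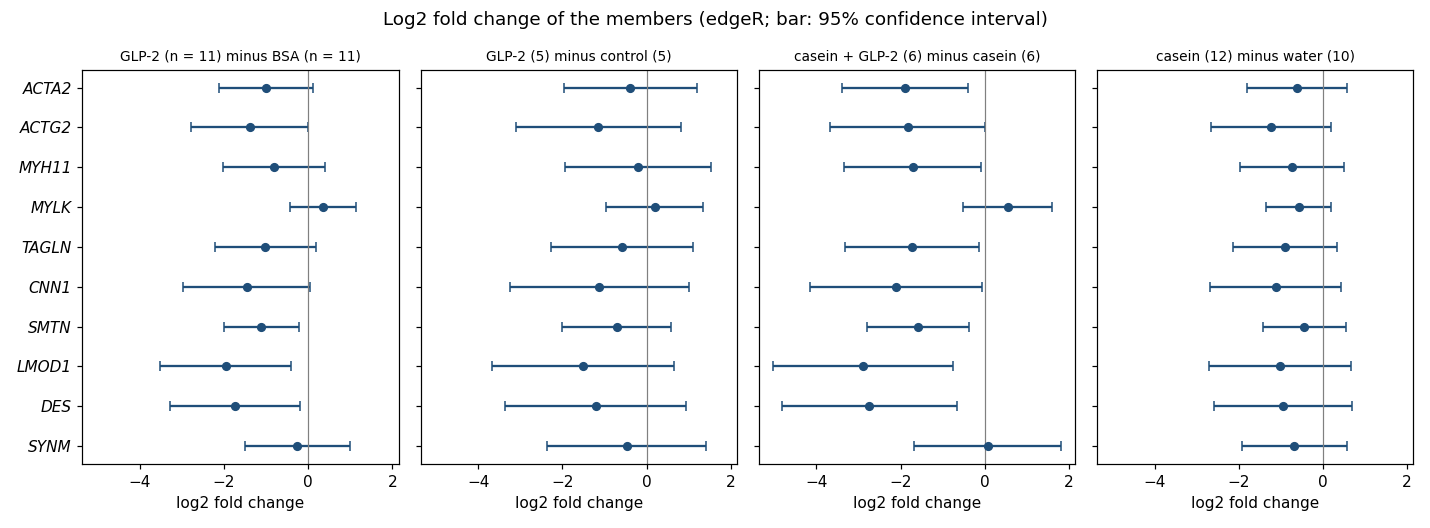
Log2 fold change of each member (points, edgeR) with its 95% confidence interval (bars) in 4 comparisons on a common horizontal axis. The points lie left of 0 for 9 of 10 members for GLP-2 against BSA and for 10 of 10 for casein against water, with intervals that reach 0 for most, and furthest left for LMOD1 (-2.89) and DES (-2.75) in casein + GLP-2 against casein.

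Within each infusion, GLP-2 was compared in a model of the 4 treatments fitted to 15086 genes. Between GLP-2 and control steers, 0 members and 0% of all genes passed padj ≤ 0.05 in edgeR, and 0 members against 13.9% of all genes reached an unadjusted p ≤ 0.05. The log2 fold change was -0.20 for MYH11 (SE 0.833) and -1.51 for LMOD1 (SE 1.04, padj = 0.509). Between casein + GLP-2 and casein steers, 0 members and 0% of all genes passed the adjusted threshold in edgeR. There, 7 of 10 members reached an unadjusted p ≤ 0.05, all lower with GLP-2 (ACTA2, MYH11, TAGLN, CNN1, SMTN, LMOD1 and DES), against 24.1% of all genes in either direction. These genes are among the 8 members that vary together, so they do not count as separate observations. LMOD1 had a log2 fold change of -2.89 (SE 1.03, padj = 0.134), DES of -2.75 (SE 1.00, padj = 0.138) and ACTA2 of -1.89 (SE 0.721, padj = 0.144), while MYLK was at 0.55 and SYNM at 0.07. DESeq2 called 1 member, LMOD1, in this contrast. The share of all genes that it called there was not recorded, so this count has no background to be read against.

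The difference between the infusions was itself tested as the casein × GLP-2 interaction. No member was called (padj = 0.996 for each), 0% of all genes were called in edgeR, and 0 members against 4.28% of all genes reached an unadjusted p ≤ 0.05. The interval of the interaction ran from -3.86 to 0.85 for MYH11 and from -4.31 to 1.56 for LMOD1, both wide.

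Postruminal casein infusion was compared with water in the same way. With casein, 0 of 10 members passed padj ≤ 0.05 in edgeR (padj = 0.994 for each), as did 0% of 14096 genes, and 0 members reached an unadjusted p ≤ 0.05 beside 3.36% of all genes. The log2 fold change was below 0 for all 10 members (median -0.82 against 0.00 for all genes), from -0.44 for SMTN (SE 0.482) to -1.235 for ACTG2 (SE 0.691). Without control replicate 5 it was 0.02 for LMOD1 and -0.10 for DES, which had been -1.02 and -0.94.

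The infusion was also compared within each injection. Between casein and control steers, 0 members and 0% of all genes were called in edgeR, and 0 members against 5.66% of all genes reached an unadjusted p ≤ 0.05. Between casein + GLP-2 and GLP-2 steers, 0 members and 0% of all genes were called in edgeR (padj = 0.995 for each member). In that contrast 4 members (ACTA2, MYH11, TAGLN and DES) reached an unadjusted p ≤ 0.05, with lower values under casein, beside 2.64% of all genes. They too belong to the 8 members that vary together and are not separate observations. The log2 fold change was -1.705 for MYH11 (SE 0.809) and -2.12 for DES (SE 1.01). The casein + GLP-2 steers enter both this contrast and the one with casein steers, so the values are not independent.

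The rest of the contraction pathway was read from a list of 52 genes, of which 43 were tested between GLP-2 and BSA. Of these, 3 passed padj ≤ 0.05 in edgeR, with 2 higher and 1 lower, beside 13.5% of all genes, a larger share. The median log2 fold change of the 43 genes was -0.19. The regulatory light chain MYL9, which the kinase phosphorylates, was lower with GLP-2 (log2 fold change = -0.80, SE 0.231, padj = 0.0310). PDE5A, the phosphodiesterase that breaks down cyclic GMP, was higher (log2 fold change = 0.89, SE 0.198, padj = 0.0193), as was the SRF coactivator MRTFB (0.82, SE 0.229, padj = 0.0282). ROCK2, a kinase that restrains the light chain phosphatase, tended to be higher (0.93, padj = 0.0566). With the replicate block only PDE5A was called, so that MYL9 and MRTFB lost their calls, as they did in limma on log2(FPKM + 1) without a filter. The count was also 1 (PDE5A each time) without casein + GLP-2 replicate 3, control replicate 3 or GLP-2 replicate 6, and from 5 to 7 without casein replicate 4 or 6, control replicate 2 or GLP-2 replicate 1. The share of all genes is not given beside these counts. The total of called genes also moved where a steer was left out, so these shifts are not read as particular to the pathway.

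By role, all 6 genes of the light chains and thin filament were below 0 with GLP-2 (median -0.46), with 1 called. Tropomyosin TPM2 tended to be lower (-1.14, padj = 0.0880), as did calponin 2, CNN2 (-0.55, padj = 0.0675), whereas TPM1 (-0.37, padj = 0.251) and caldesmon CALD1 (-0.37, padj = 0.616) did not pass. Of 13 genes of dense bodies and adhesion, 11 were below 0 (median -0.51) and 0 were called in edgeR, and the actin crosslinker FLNA tended to be lower (-1.07, padj = 0.0710). MYOCD, the master regulator of smooth muscle genes, did not pass the filter and had a median of 0.401 CPM. With casein, 0 of 44 genes tested were called, and the smallest unadjusted p was that of CNN2 (log2 fold change = -0.64, SE 0.200, padj = 0.994). The next lower genes were HSPB6 (-0.97) and MYL9 (-0.53), and the higher genes of smallest p were the guanylate cyclase subunit GUCY1B1 (0.40), PPP1R12B (0.29) and ARHGEF12 (0.08), all at padj = 0.994.

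The genes most like the members across steers were sought by Pearson correlation over the 22 steers. Log2 CPM of each gene was set against the mean log2 CPM of all 10 members. The 8 highest were ADGRA2 (r = 0.95), an endothelial adhesion receptor, tropomyosin TPM2 (0.95), WNT2B (0.95), FSTL3 (0.945), the caveola protein CAVIN1 (0.94), FHL1 (0.94), MAB21L2 (0.94) and EHD2 (0.94). The 4 lowest were CD244 (r = -0.885), an NK and T cell receptor, ZBP1 (-0.875), the T cell coreceptor CD8A (-0.875) and TMEM192 (-0.87). These genes were picked as the ends of a ranking and are named without a test. For MYLK alone, the highest were TCF20 (r = 0.87), DYRK2 (0.85) and GALNT10 (0.85), none of which is among the 8 above. This last ranking was added after the data had been seen.

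Markers of 13 other cell types and structures, and body weight, were set beside MYH11 as a single gene. It stands here for the 8 members that vary together, not for MYLK (r = 0.11) or SYNM (r = 0.46). A score is the mean log2 CPM of the markers of a list that passed the filter, and p-values come from 2-sided permutation tests with 100000 resamples, adjusted over these 14 relations. MYH11 was positively correlated with endothelium (led by VWF and KDR, with PECAM1, CDH5 and TEK; r = 0.93, rho = 0.90, permutation padj = 2.8e-05), and with fibroblasts (led by COL3A1 and COL1A2; r = 0.93, rho = 0.91, permutation padj = 2.8e-05). The same held for pericytes (led by RGS5 and PDGFRB; r = 0.89, rho = 0.87) at the same permutation padj of 2.8e-05, for which the raw p of 1e-05 is the smallest that the resamples can give. Without control replicate 5 and GLP-2 replicate 1, the steers farthest from the median of MYH11, r was 0.94 for endothelium, 0.92 for fibroblasts and 0.87 for pericytes. Within GLP-2 steers r was 0.91, 0.915 and 0.97 in that order, and within BSA steers 0.95, 0.94 and 0.85.

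Plasma cells (led by JCHAIN and XBP1; r = 0.81, rho = 0.76, permutation padj = 2.8e-05), enteric neurons (r = 0.74, rho = 0.735, permutation padj = 0.00021) and crypt and proliferation genes (led by MKI67 and TOP2A; r = 0.72, rho = 0.71, permutation padj = 0.00048) were also positively correlated with MYH11. Without the same 2 steers r was 0.77, 0.72 and 0.63. Within GLP-2 steers it was 0.74, 0.72 and 0.70, and within BSA steers 0.84, 0.73 and 0.67. The neuronal score rests on STMN2 and UCHL1, while VIP, PRPH and ELAVL4 did not pass the filter, and ELAVL4 had 0 counts in 20 of 22 steers.

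Villus enterocyte markers (led by FABP2 and APOA1, with VIL1, APOA4, ALPI, LCT, SI, ANPEP and SLC5A1) went the other way, with r = -0.67 (rho = -0.69, permutation padj = 0.00119) and -0.67 without the same 2 steers. The relation held within BSA steers (r = -0.77, permutation padj = 0.0146) but did not pass within GLP-2 steers (r = -0.42, permutation padj = 0.305). B cell follicle markers, led by MS4A1 and CR2, had r = 0.54 (rho = 0.53, permutation padj = 0.013) and 0.575 without the 2 steers, but 0.245 within GLP-2 and 0.60 within BSA steers, neither of which passed. The summed level of the follicle markers ranged from 14.6 to 50.4 CPM with GLP-2 and from 17.6 to 1300 CPM with BSA. In edgeR, 6 of 6 tested follicle markers were called lower with GLP-2, beside 1166 of 13918 genes other than the members. The mean villus score was 10.7 ± 0.71 (SD, n = 11) with GLP-2 and 9.23 ± 1.47 (SD, n = 11) with BSA. Of its 9 markers, 2 were called higher in edgeR, beside 715 of the same 13918 genes. The part of these lists in the values of the members was not tested.

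**Figure D5:**
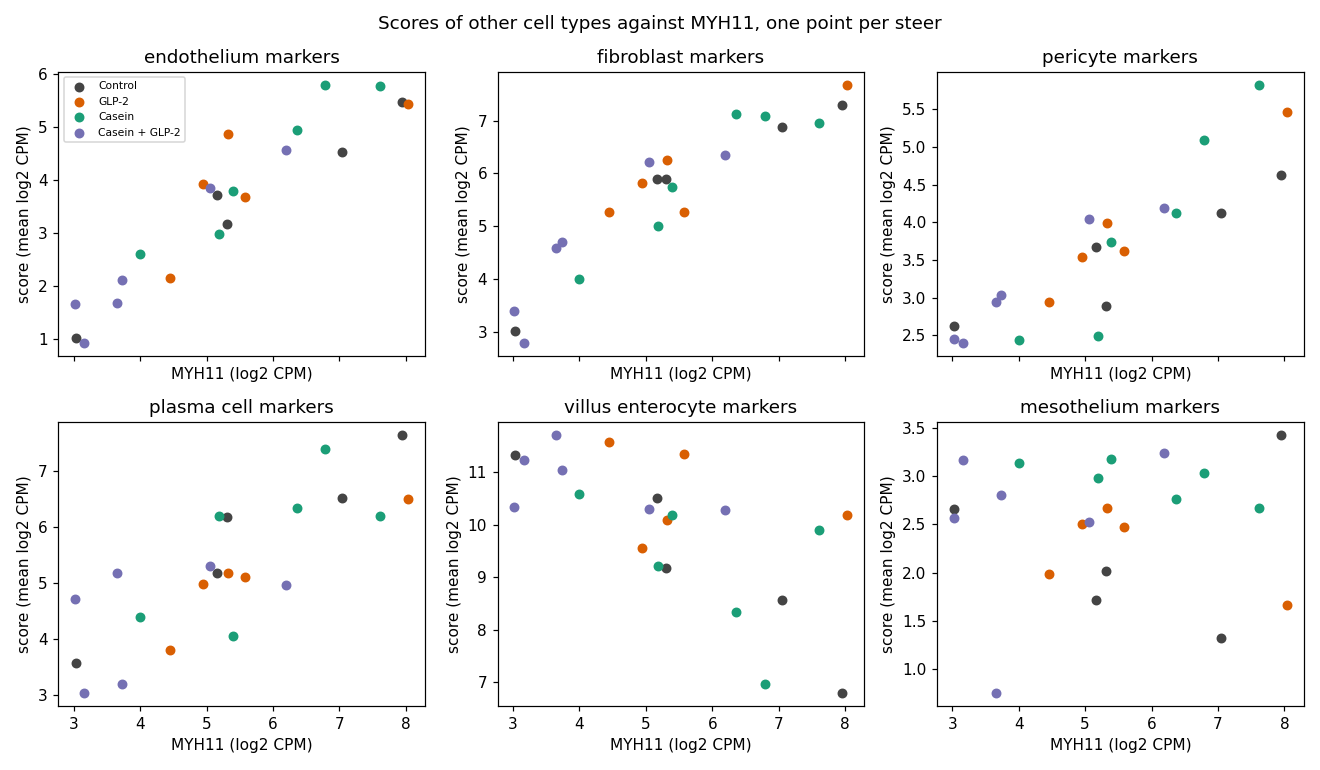
Mean log2 CPM of the markers of 6 cell types (vertical axes) against log2 CPM of MYH11 (horizontal axis), with 1 point per steer coloured by treatment. Endothelium, fibroblast, pericyte and plasma cell scores climb with MYH11 (r from 0.81 to 0.93), the villus enterocyte score declines (r = -0.67) and the mesothelium score shows no trend (r = 0.02).

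Goblet cells had no relation to MYH11 that passed (r = -0.415, rho = -0.275, permutation padj = 0.0711). On log2(FPKM + 1), r for goblet cells was -0.453 and passed (permutation padj = 0.044), but rho was -0.293 and did not (permutation padj = 0.237). Their score rests on CLCA1 and TFF3 alone, as 2 of the 4 listed markers were in the count table. Nor did interstitial cells of Cajal (led by KIT and ANO1, r = 0.305, rho = 0.39, permutation padj = 0.198), mesothelium (r = 0.02, rho = 0.09, permutation padj = 0.933) or body weight (r = 0.06, rho = 0.10, permutation padj = 0.848) have a relation that passed. Without the 2 steers r was -0.41, 0.12, 0.02 and 0.115. The serosal side of the gut carries mesothelium, whose score rests on UPK3B alone, and WT1 had 0 counts in 21 of 22 steers and MSLN in 12. Of the markers of skeletal or cardiac muscle, MYH2 was at 0 counts in every steer, MYH1 in 21 of 22, MYH7 in 20 and CKM in 15. TNNT3 had 0 counts in 6 of 22 steers (median 0.236 CPM, highest 2.09 CPM) and did not pass the filter. ACTA1 alone passed it (median 2.89 CPM, highest 41.8 CPM) and so made up the score. That score had r = -0.54 (rho = -0.47, permutation padj = 0.013), and -0.42 without the 2 steers (permutation padj = 0.0879). Reads of ACTA1 cannot be told from those of the other actins with certainty.

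MYLK was set beside the same 13 scores after its values had been seen, and 0 of 13 relations passed in permutation tests. Its strongest was with interstitial cells of Cajal (r = 0.43, rho = 0.20, permutation p = 0.0489, padj = 0.636), and r was 0.23 without the 2 steers farthest from the median of MYLK. SYNM also had 0 of 13 relations that passed, the strongest again with interstitial cells of Cajal (r = 0.55, rho = 0.51, permutation p = 0.0101, padj = 0.0836). For SYNM r was 0.59 without its 2 farthest steers, 0.58 within GLP-2 steers and 0.54 within BSA steers. The Cajal score averages 3 markers of unlike level, KIT (mean 44.4 CPM), ANO1 (3.12 CPM) and ETV1 (2.63 CPM). With GLP-2 and BSA, KIT had 49.4 ± 10.8 and 39.4 ± 22.2 CPM (mean ± SD) and ETV1 3.03 ± 1.45 and 2.23 ± 0.837 CPM. ANO1 went the other way, with 1.81 ± 1.1 and 4.43 ± 3.92 CPM.

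The number of genes called between GLP-2 and BSA changed when the smooth muscle level was taken into account. Of 13918 genes other than the members, 1881 were called without it, with 715 higher and 1166 lower. The covariate was the mean log2 CPM of all 10 members, MYLK and SYNM included. With it, 691 genes were called in edgeR (4.96%), with 295 higher and 396 lower, and 680 of them were among the 1881. This count was not stable: it was 0 with MYH11 alone as the covariate, 0 with the replicate block added, and 0 in 8 of the 22 fits that left out a steer (casein replicate 3, casein + GLP-2 replicates 1, 3 and 6, control replicate 1, and GLP-2 replicates 1, 3 and 6). It lay between 91 and 447 without casein replicate 1 or 2, casein + GLP-2 replicate 2 or control replicate 3 or 5, and between 1054 and 1666 without casein replicate 4, 5 or 6, control replicate 2 or GLP-2 replicate 4. With the same threshold on unadjusted p in edgeR, 4813 genes passed without the covariate and 3779 with it. The unadjusted count thus fell far less than the count of called genes. The smallest padj in edgeR was 0.0171 without the covariate and 0.0319 with it, both near the threshold. The drop from 1881 to 691 is therefore no measure of how much of the GLP-2 difference was removed. The smooth muscle level was measured after treatment in the same libraries, so its share in the GLP-2 comparison and the effect of GLP-2 cannot be told apart.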

How the data were processed

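RNA of scraped jejunal mucosa was sequenced from 22 steers as strand-specific, poly-A selected libraries. Per the labels and the methods, the authors aligned reads to ARS-UCD1.2 with HISAT2 2.0.5 and counted them per gene with featureCounts 1.5.0-p3, and deposited raw counts. The authors also deposited FPKM, which differ from counts per length and library total by a factor of 0.798 to 1.37 per library, and these served for levels between genes and as an alternative. Counts were filtered by filterByExpr (minimum count 10), TMM-normalized and tested with the quasi-likelihood test of edgeR 4.0.16 (R 4.3.3). P-values were adjusted by the Benjamini-Hochberg procedure (padj), with differences declared at padj ≤ 0.05 and tendencies at padj ≤ 0.10. Log2 CPM used a prior count of 2. The main effects were fitted as pooled groups, and the 4 treatments in a model for contrasts and the interaction. Each animal is 1 library, and no libraries were identical. Alternatives were other normalizations, no filter, DESeq2 1.42.0, a robust fit, the other factor, the replicate block, limma 3.58.1 on log2(FPKM + 1) or log2(FPKM + 0.1), and leaving out each steer. The procedure was tested on simulated data in which genes were drawn independently at a common dispersion. That setting differs from the members, which vary together and widely, so it does not measure power or error for them. Named genes were all members, set genes of the pathway list with the 3 higher and 3 lower of smallest p, and the ends of the likeness ranking. The members, lists and tests were chosen with earlier results of these data known. Intervals and floors cover counting error or the spread between steers only. The results of 1 cell type list and 1 group of pathway genes, and a few single genes, are not reported here.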

Additional observations from a re-analysis of the deposited data

How the results depend on the processing

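Between GLP-2 and BSA, 0 of 10 members were called in edgeR (13.5% of all genes) and 2 with DESeq2 (21.5% of all genes). With the other factor as covariate 1 member was called, for which the share of all genes is not given here. When each steer was left out, 0 to 4 members were called. Of 43 pathway genes tested, 3 were called in edgeR, against 7 with DESeq2, where 21.5% of all genes were called. Pathway genes called were 1 with the replicate block and 1 with limma on log2(FPKM + 1) without a filter (PDE5A in both, with the calls of MYL9 and MRTFB lost). They were 1 to 7 when each steer was left out. Beside the block, limma and leave-out counts of pathway genes, the share of all genes is not given here. In the pairwise contrasts, DESeq2 called 1 member, and the share of all genes that it called there was not recorded. With the smooth muscle level as covariate, 691 genes became 0 with the replicate block, 0 with MYH11 alone, and 0 to 1666 when each steer was left out.

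Deviations of steers of the same block had a mean correlation of 0.03 over 30 pairs and of other blocks -0.01 over 151, so the replicate block was kept as an alternative, and it changed no other call. SYNM between GLP-2 and BSA turned to 0.24 with the replicate block, 0.25 with limma on log2(FPKM + 0.1) and 0.29 without control replicate 5 (-0.673 to 0.291 when each steer was left out). Between casein and water, SYNM turned to 0.12 with limma on log2(FPKM + 0.1), and LMOD1 to 0.022 without control replicate 5 (-1.61 to 0.022 when each steer was left out). The correlation of MYH11 with mesothelium turned to -0.0873 within GLP-2 steers and to -0.00984 with treatment means removed, that with goblet cells to 0.32 within GLP-2 steers, and that with interstitial cells of Cajal to -0.0648 on the FPKM scale. On that scale the Pearson correlation of MYH11 with goblet cells passed (r = -0.453, permutation padj = 0.044). The cause of these changes was not tested. The relations within GLP-2 and within BSA steers were chosen after seeing the data. Of the member fold changes, 625 kept direction and side of the threshold, 10 passed it and 5 turned. Low counts limit CNN1, LMOD1 and SYNM most.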
